A study of Caenorhabditis elegans with 8 samples.

Results

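Arsenite-exposed Caenorhabditis elegans aged 5 days were compared with arsenite-exposed worms aged 1 day by messenger RNA sequencing of whole animals. The comparison was defined by the sample labels and rests on 4 of the 8 libraries of the series, 2 at 5 days and 2 at 1 day. All worms were hermaphrodites of the wild-type strain N2, with no transgene or mutation, and the other 4 libraries came from worms kept in water for the same ages (2 at 5 days, 2 at 1 day). The labels give 100 nM for arsenite and for water alike. They do not state how long the worms were exposed, from which stage age was counted or how many worms a library holds, so age and time in arsenite cannot be told apart. The 5-day libraries carry the numbers 23 to 26 and the 1-day libraries 31 to 34. Age and any batch that follows these numbers cannot be told apart either.

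The worm is a common model of ageing. Its adult body cells no longer divide, while the gonad goes on making oocytes and the intestine makes yolk proteins for them. Hermaphrodites form their sperm before adulthood and then switch to oocytes, and the collagens of the cuticle, the outer layer, are made in waves tied to the moults and to young adulthood. Arsenite is a form of arsenic that binds the thiol groups of proteins. It is known in worms as an inducer of oxidative stress responses, which run through the transcription factor SKN-1 and through DAF-16, the target of insulin signalling.

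The 4 arsenite libraries held 23891928 and 21598326 counts at 5 days, against 26917287 and 27041107 at 1 day. Log2 levels correlated at 0.993 between the 5-day libraries and at 0.995 between the 1-day libraries, against 0.940 across ages (Pearson's r across genes, which are not independent replicates). Among the arsenite libraries, principal component 1 (90.03% of variance) separated the ages, and component 2 (5.77%) set the 2 libraries of 5 days apart from each other. The common biological coefficient of variation was 6.62% at 5 days, against 3.74% at 1 day. Nuclear ribosomal RNA took 1.78% and 1.59% of counts at 5 days, against 3.44% and 3.01% at 1 day. Separate cultures are not stated for libraries of 1 group. The p-values therefore cover the spread between libraries alone, and that spread may be technical. The yolk genes vit-2, vit-5 and vit-6 together took 60793 and 62372 CPM (counts scaled to a common library size) at 5 days, against 69966 and 66035 CPM at 1 day, which is the yolk message of adult hermaphrodites. Together, 4 markers of male tissue had 0.859 and 1.08 CPM at 5 days, against 0.936 and 1.16 CPM at 1 day.

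The levels of many genes differed between the ages in arsenite worms. Of 14449 genes with enough counts to test, 8616 (59.6%) differed between 5 days and 1 day at an adjusted p under 0.05 (edgeR quasi-likelihood test, Benjamini-Hochberg adjustment over all genes tested). In 4371 genes (30.3%) the level was higher at 5 days and in 4245 (29.4%) it was lower. Of the called genes, 1512 were more than 2-fold higher (10.5% of those tested) and 1816 more than 2-fold lower (12.6%). Of the 9161 genes with a mean of at least 5 CPM, 31.1% differed between the mean levels of the ages by more than 1.5-fold, while 1.42% differed as much between the 2 libraries of 5 days and 0.349% between the 2 libraries of 1 day. The libraries of the ages did not overlap in 11705 genes (81.0%). The median log2 fold change of all genes tested was 0.01, which the TMM scaling sets near 0. Scaled by library totals only, the median was 0.096, with 5134 genes higher and 3622 lower. In whole worms, fewer cells of a type and less RNA per cell cannot be told apart, and this holds for every gene group named for a tissue.

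**Figure D1:**
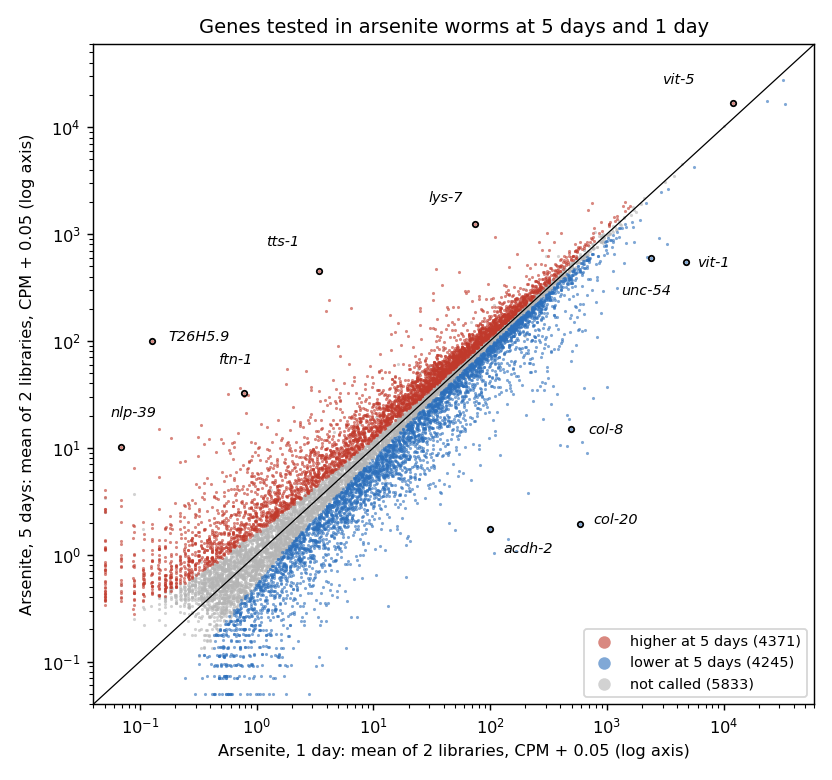
Mean level of each of the 14449 genes tested in the 2 arsenite libraries at 5 days (vertical, CPM + 0.05, log axis) against the 2 at 1 day (horizontal, same scale), coloured by the edgeR call. Called genes lie on both sides of the line of equal levels, 4371 higher and 4245 lower at 5 days, and T26H5.9 and col-20 lie far from it on opposite sides.

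Among genes with at least 5 CPM, the gene with the largest rise was T26H5.9, a protein-coding gene on chromosome V from 15444916 to 15445420 (build WBcel235). It stood at 98.9 and 99.3 CPM at 5 days, against 0.0390 and 0.113 CPM at 1 day. The 1-day libraries held 4 counts between them, and the ratio of the ages was 1295 with a 95% interval of 506 to 4756 from counting error alone. The gene was thus near the limit of detection at 1 day and well expressed in both libraries of 5 days. The long noncoding RNA tts-1 (chromosome X, 1504131 to 1504841), known from long-lived mutants where it associates with ribosomes, had 410 and 492 CPM at 5 days, against 2.58 and 4.202 CPM at 1 day. Its log2 fold change was 7.05, with an SE of 0.23 and an adjusted p of 1.68e-06 by edgeR.

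The other genes with the largest rises had low levels in both libraries of 1 day. The neuropeptide gene nlp-39 stood at 11.04 and 9.36 CPM at 5 days, against 0.0390 and 0 CPM at 1 day, a ratio of 535 with an interval of 95.6 or more. For the insulin-like gene ins-19 the ratio was 169 (lower limit 46.4), for the antibacterial peptide gene abf-2 it was 155 (66.3) and for the collagen gene col-41 it was 90.4 (43.6), all from 7 or fewer counts at 1 day. The genes sysm-1, T22B7.7, C50F7.5 and dod-3 had log2 fold changes of 5.95 (SE 0.39), 5.86 (0.47), 5.79 (0.26) and 5.74 (0.29). T22B7.7 had 288 and 195 CPM at 5 days, against 4.18 and 4.13 CPM at 1 day, so its libraries of 5 days differed from each other far less than from those of 1 day.

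Among the 10 largest falls 7 were collagen genes. The col-20 gene (chromosome II, 4869670 to 4870791) stood at 2.45 and 1.31 CPM at 5 days, against 629 and 554 CPM at 1 day, with a log2 fold change of -8.28 (SE 0.19, adjusted p = 3.48e-09 by edgeR). The genes col-129, col-139, col-81, col-124, col-179 and col-93 had log2 fold changes between -7.33 (SE 0.16) and -5.78 (SE 0.38). The 3 others were acdh-2, R09E10.6 and clec-70. The acyl-CoA dehydrogenase gene acdh-2 stood at 2.09 and 1.31 CPM at 5 days, against 100.2 and 98.0 CPM at 1 day (log2 fold change -5.85, SE 0.12, edgeR adjusted p = 5.83e-21). In all 10 genes both libraries of 5 days lay below both of 1 day, which the rule for choosing them required. Among all genes tested the libraries of the ages did not overlap in 81.0%.

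By absolute amount, the 8 largest gains in mean CPM were in vit-5, sip-1, lys-7, perm-4, ule-1, fat-2, perm-2 and lea-1. The yolk gene vit-5 rose by a log2 fold change of 0.48 (SE 0.08), the eggshell genes perm-4 and perm-2 by 1.302 and 1.35 (SE 0.06 each) and the small heat shock gene sip-1 by 1.37 (SE 0.06). The lysozyme gene lys-7, a DAF-16 target (chromosome V, 3481432 to 3482600), stood at 1263 and 1215 CPM at 5 days, against 75.1 and 73.5 CPM at 1 day, with a log2 fold change of 4.06 (SE 0.07, adjusted p = 1.98e-22 by edgeR). The gene ule-1, a uterine lumen-expressed gene, had 884 and 1007 CPM at 5 days, against 115 and 106 CPM at 1 day. The fatty acid desaturase gene fat-2 rose by 1.73 (SE 0.07) and the late embryogenesis abundant gene lea-1 by 1.66 (SE 0.09). The largest losses were in the ribosomal RNA gene rrn-3.1, in vit-2, vit-6, vit-1, vit-3 and vit-4, in the muscle myosin gene unc-54 and in the aspartic protease gene asp-1. Of these, rrn-3.1 fell by 1.02 on the log2 scale (SE 0.19), and it is a ribosomal RNA in libraries made with an mRNA kit.

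**Figure D2:**
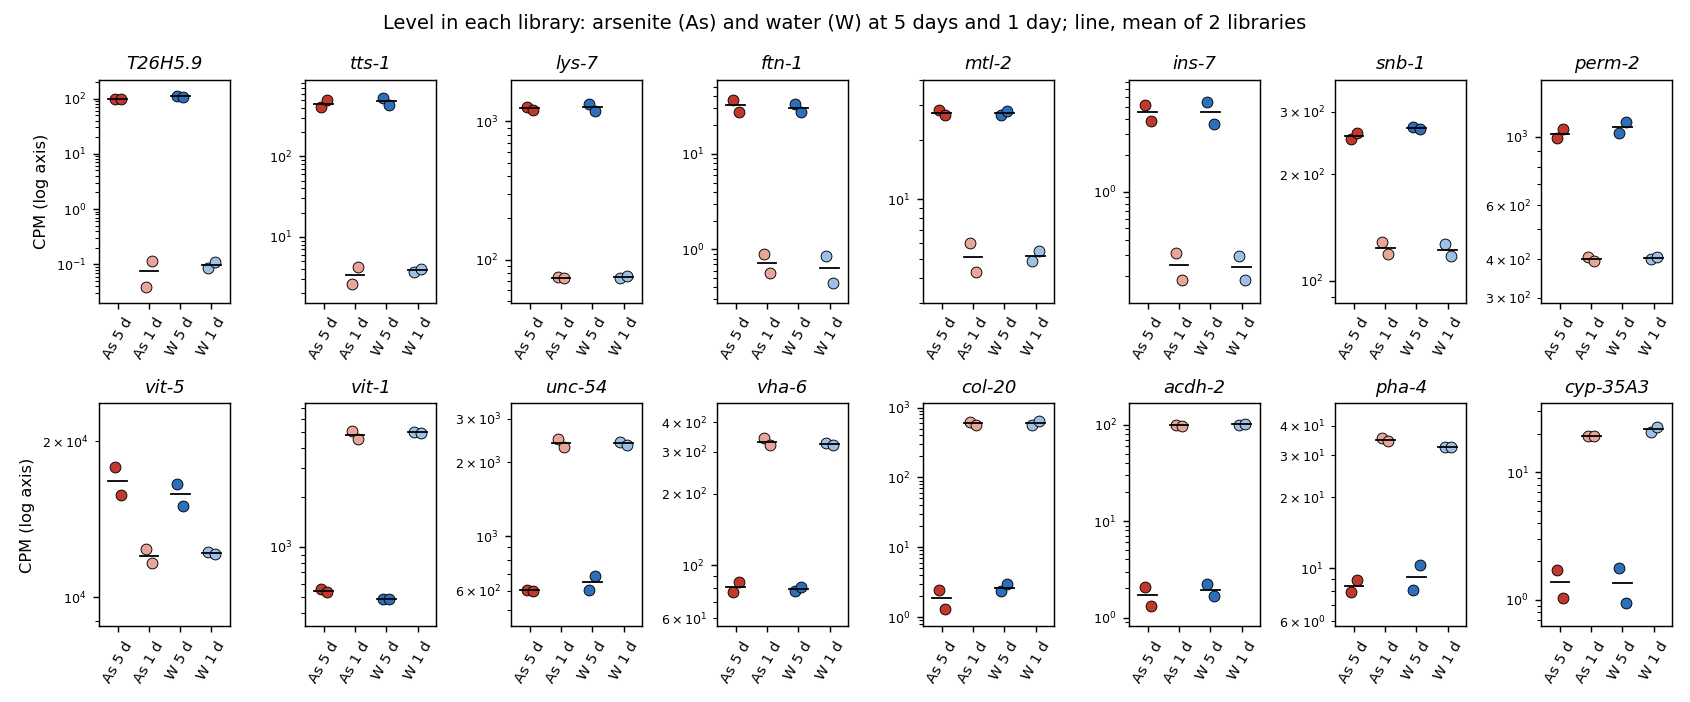
Level of 16 genes in each library (CPM, log axis, scale differing by panel), with arsenite (As) and water (W) libraries at 5 days and 1 day and a line at the mean of 2 libraries. In every panel the 2 arsenite libraries of 5 days lie on 1 side of the 2 of 1 day, and the water libraries show the same order of ages. The 16 genes were picked among called genes, and in 81.0% of all genes tested the arsenite libraries of the ages did not overlap. The lys-7 gene stands at 1263 and 1215 CPM at 5 days in arsenite, against 75.1 and 73.5 CPM at 1 day.

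Gene lists are described by how many of their tested members were called higher or lower at 5 days, to be read against 30.3% and 29.4% of all genes, and by their median log2 fold change, to be read against 0.01.

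The change with age also varied with the length of the gene, and this touches several lists. The genes tested were split into 5 equal groups by exonic length. In the group of shortest genes (up to 826 bases) 49.6% were called higher and 16.36% lower, with a median log2 fold change of 0.43. In the group of longest genes (from 2325 bases) 19.2% were called higher and 41.3% lower, with a median of -0.13. Water libraries gave medians of 0.43 and -0.12 for the same groups. Spearman's rho between length and fold change was -0.25 over all genes tested, which is a description, since all these genes share the same libraries. Whether library preparation, RNA quality or the worms gave this trend was not tested. A fit with the trend removed was chosen after seeing the data, and where it turned the balance of a list its counts stand beside the list.

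**Figure D3:**
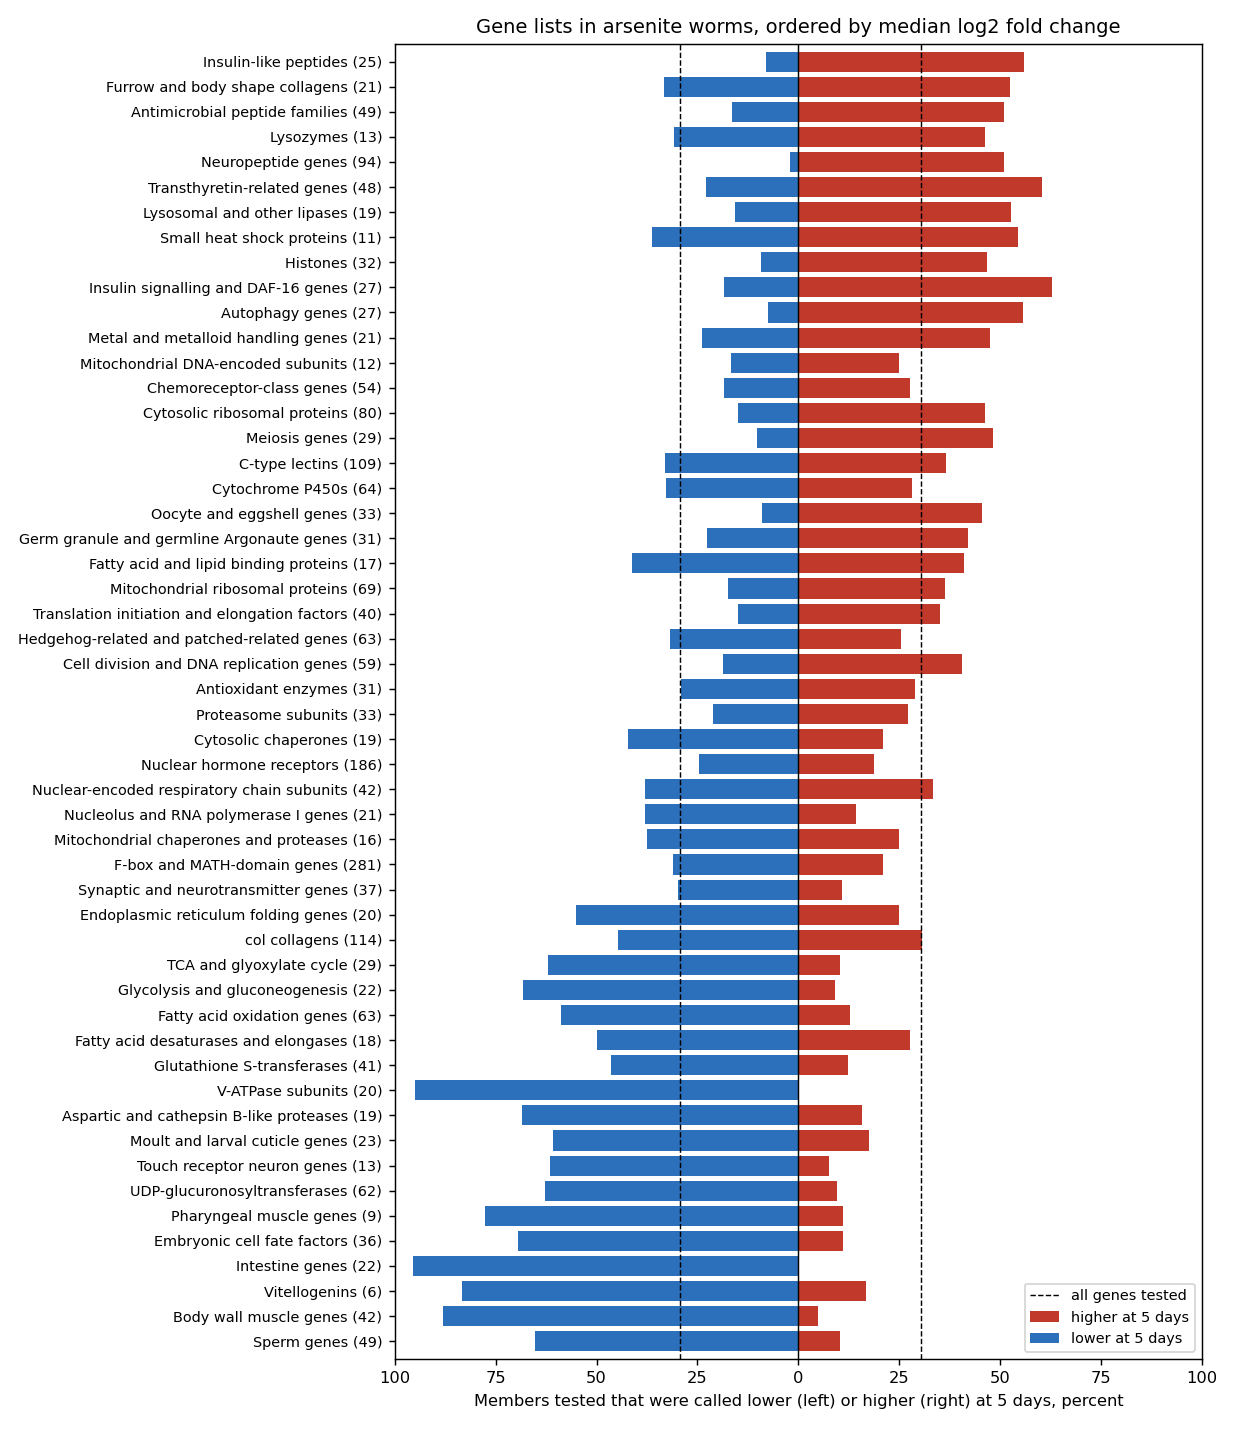
Share of the tested members of each of 52 gene lists called higher (right) or lower (left) at 5 days in arsenite worms, in percent, ordered by the lists' median log2 fold change; the number tested stands in brackets and dashed lines give 30.3% and 29.4% of all genes. Sperm, muscle, intestine, V-ATPase and UDP-glucuronosyltransferase genes reach far to the left, and insulin-like peptides, DAF-16 genes, autophagy genes and transthyretin-related genes to the right.

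Cuticle genes changed in both directions. The col genes, which encode cuticle collagens, summed to 1153 and 1122 CPM at 5 days, against 11495 and 10059 CPM at 1 day. Of 156 such genes 114 could be tested, and 51 were lower and 35 higher, nearly all by more than 2-fold (50 and 32), with a list median of -0.24. The col-8 gene stood at 14.4 and 15.3 CPM at 5 days, against 526 and 457 CPM at 1 day (log2 fold change -5.05, SE 0.08, edgeR adjusted p = 1.98e-22), and col-119 fell by 4.15 on the log2 scale (SE 0.08). Among those that rose was col-65, with 6.34 and 8.42 CPM at 5 days, against 1.83 and 1.501 CPM at 1 day. Several col genes are close copies of each other, and how reads that map to several of them were counted is not given in the sources used here.

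The collagens known from mutants with altered body shape or cuticle furrows were more often higher. Of 21 tested, 11 rose, all by more than 2-fold, and 7 fell. The rol-8 gene had 6.91 and 8.87 CPM at 5 days, against 0.663 and 0.488 CPM at 1 day (log2 fold change 3.77, SE 0.33), and sqt-1 rose by 3.34 (SE 0.32). In contrast, dpy-10 and dpy-2, which are furrow collagens, fell by 1.29 (SE 0.10) and 1.35 (SE 0.12) on the log2 scale. The list did not move as a whole. Genes of the moult, the shedding of the old cuticle, were lower in 14 and higher in 4 of 23, with noah-1, an apical matrix protein, at -1.71 (SE 0.08) and the nematode period homologue lin-42 at 0.74 (SE 0.14). The hedgehog-related and patched-related genes, many of them expressed in the skin, had 16 higher and 20 lower of 63. The grd-3 gene fell by 3.67 on the log2 scale (SE 0.15) and ptr-22 rose by 1.55 (SE 0.12).

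Most muscle genes were lower at 5 days. Of 42 genes of body wall muscle, 37 were lower and 2 higher, and 28 of the falls passed 2-fold, with a median log2 fold change of -1.40. Together they stood at 5574 and 5661 CPM at 5 days, against 13223 and 12727 CPM at 1 day. The major myosin heavy chain gene unc-54 had 607 and 599 CPM at 5 days, against 2480 and 2311 CPM at 1 day (log2 fold change -1.99, SE 0.07, edgeR adjusted p = 4.15e-17). The troponin genes tnt-2 (troponin T) and unc-27 (troponin I) fell by 2.65 and 2.05 on the log2 scale (SE 0.07 each). The 2 genes called higher were the actin gene act-1 at 0.41 (SE 0.07) and the cofilin gene unc-60 at 0.21 (SE 0.06), and unc-60 turned to -0.04 with the length trend removed. In the pharynx, the feeding organ, 7 of 9 muscle genes were lower and 1 was higher. The pharyngeal myosin genes myo-1 and myo-2 had -1.17 (SE 0.18) and -0.78 (SE 0.21), and the receptor subunit gene eat-2 had 1.895 (SE 0.33). For myo-2 the call was lost in several alternatives, among them leaving out replicate 1 of 5 days (-0.62, edgeR adjusted p = 0.0834), and the troponin gene tni-4 was not called (-0.04, SE 0.09).

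Most intestinal genes were lower as well. Of 22 genes of the intestine 21 were lower and none was higher (median -1.004), and together they had 1550 and 1716 CPM at 5 days, against 4614 and 4311 CPM at 1 day. The apical proton pump gene vha-6 stood at 77.4 and 84.9 CPM at 5 days, against 343 and 320 CPM at 1 day (log2 fold change -2.03, SE 0.06, edgeR adjusted p = 5.76e-18). The acid phosphatase gene pho-1 fell by 2.32 on the log2 scale (SE 0.10). Not all intestinal markers moved alike. The esterase gene ges-1 had 36.02 and 35.6 CPM at 5 days, against 37.5 and 37.9 CPM at 1 day, and was not called (edgeR adjusted p = 0.422), while elt-2, the main intestinal transcription factor, fell by 0.56 on the log2 scale (adjusted p = 0.000712).

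The vacuolar proton pump was lower in nearly every subunit. Of 20 genes for V-ATPase subunits, which acidify lysosomes and the gut lumen, 19 were lower and none was higher, with a median of -0.65 and 7 falls of more than 2-fold. The list summed to 2915 and 3078 CPM at 5 days, against 5482 and 5328 CPM at 1 day. The largest falls among those named were in vha-5 (-2.23, SE 0.07) and vha-6, and vha-11 had -1.38 (SE 0.06). Lysosomal proteases went the same way. Aspartic and cathepsin B-like proteases had 13 lower and 3 higher of 19, with asp-2 at 181 and 182 CPM at 5 days, against 908 and 866 CPM at 1 day, and cpr-9 at -2.32 (SE 0.07). The exceptions that rose were cpr-3 (1.99, SE 0.09), asp-17 (1.23, SE 0.16) and cpr-2, which had 4 counts at 1 day.

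The 6 vitellogenin genes, which encode yolk, parted into 1 that rose and 5 that fell. The vit-1 gene stood at 553 and 536 CPM at 5 days, against 5076 and 4492 CPM at 1 day (log2 fold change -3.14, SE 0.07, edgeR adjusted p = 1.75e-20). The vit-3 and vit-4 genes fell by 2.03 (SE 0.21) and 1.61 (SE 0.11) on the log2 scale. The most abundant, vit-6, had 26194 and 28484 CPM at 5 days, against 33526 and 31630 CPM at 1 day, and vit-2 fell by 0.42 (SE 0.08). Only vit-5 was higher, at 17800 and 15702 CPM at 5 days, against 12360 and 11650 CPM at 1 day. The change of vit-6 was small (-0.25, SE 0.08), and its call was lost without replicate 1 of 5 days, without replicate 1 of 1 day and with the length trend removed. The vit-3, vit-4 and vit-5 genes are near-identical copies, so how reads were shared between them is uncertain.

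Lipid genes split by function. Of 19 lipases, 10 were higher, 7 of these by more than 2-fold, and 3 were lower. The lysosomal lipase gene lipl-1 stood at 42.4 and 48.6 CPM at 5 days, against 5.85 and 7.69 CPM at 1 day (log2 fold change 2.74, SE 0.12, edgeR adjusted p = 9.88e-15), and lipl-2 rose by 3.01 (SE 0.24). Enzymes of fatty acid oxidation were mostly lower, 37 of 63 against 8 higher, such as the acyl-CoA oxidase gene acox-1.5 (-2.17, SE 0.07) and the acyl-CoA dehydrogenase gene acdh-9 (-2.03, SE 0.07). The hydroxyacyl-CoA dehydrogenase gene hacd-1 went against the list with 117 and 143 CPM at 5 days, against 32.5 and 35.3 CPM at 1 day. Among 18 desaturases, elongases and other synthesis genes 5 rose and 9 fell. The desaturase genes fat-2 and fat-3, which act early on polyunsaturated fatty acids, rose by 1.73 (SE 0.07) and 0.97 (SE 0.06). The stearoyl-CoA desaturase gene fat-7 fell by 1.47 on the log2 scale (SE 0.09) and the fatty acid synthase gene fasn-1 by 0.72 (SE 0.06). Lipid-binding proteins went both ways, 7 higher and 7 lower of 17, and 6 and 7 with the length trend removed. The far-6 gene stood at 131 and 119.4 CPM at 5 days, against 48.9 and 46.0 CPM at 1 day, far-1 rose by 1.02 (SE 0.06) and lbp-1 fell by 1.37 on the log2 scale (SE 0.08).

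Most genes of central carbon metabolism were lower. Of 22 genes of glycolysis and gluconeogenesis 15 fell and 2 rose (median -0.36). Of the glyceraldehyde-3-phosphate dehydrogenase genes, gpd-2 and gpd-3 fell by 1.396 (SE 0.07) and 1.28 (SE 0.06) on the log2 scale and gpd-1 rose by 0.45 (SE 0.07). Reads of these close copies may be shared. The lactate dehydrogenase gene ldh-1 fell by 1.21 (SE 0.07). In the tricarboxylic acid and glyoxylate cycles 18 of 29 fell and 3 rose, with aco-1 at 123 and 133 CPM at 5 days, against 323 and 301 CPM at 1 day. The 3 that rose, sdhd-1, dld-1 and idhg-1, had log2 fold changes of at most 0.24, and each lost its call in several alternatives. The gene dld-1 encodes the lipoamide dehydrogenase of the complexes whose lipoic acid cofactor arsenite binds, and it had 288 and 283 CPM at 5 days, against 270.4 and 249.7 CPM at 1 day (0.14, SE 0.06, edgeR adjusted p = 0.0461).

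The respiratory chain showed no common direction. Of 42 nuclear-encoded subunits 14 were higher and 16 lower, and the median exonic length was 577 bases for those higher and 1442 bases for those lower. With the length trend removed 8 were higher and 22 lower. The cytochrome oxidase genes cox-6C (1.44, SE 0.09) and cox-7C (1.29, SE 0.10) rose, and the complex I gene nuo-4 fell by 0.81 on the log2 scale (SE 0.06). Of 12 subunits encoded by mitochondrial DNA, 3 were called higher (ND1, ND3 and ND4L) and 2 lower (COX1 and COX2), against 1 and 2 with the trend removed. COX1 stood at 4511 and 3961 CPM at 5 days, against 5529 and 5607 CPM at 1 day (log2 fold change -0.39, SE 0.08). ND3 lost its call whenever an arsenite library was left out, with adjusted p between 0.0520 and 0.0778, and ND4L rests on 3 counts at 1 day.

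Messages for ribosomal proteins differed by the length of the gene. Of 80 cytosolic ribosomal protein genes 37 were higher and 12 lower, 13 of the rises passing 2-fold. Among the shortest, rpl-41.1 stood at 37.7 and 38.8 CPM at 5 days, against 7.14 and 5.89 CPM at 1 day, and rps-28 and rpl-29 rose by 2.41 (SE 0.09) and 2.201 (SE 0.07). Among longer ones, the stalk protein gene rla-0 fell by 0.54 (SE 0.07) and rps-3 by 0.36 (SE 0.07) on the log2 scale. The median exonic length was 460 bases for those higher and 708 bases for those lower, and Spearman's rho between length and fold change was -0.61 over the 80 genes. With the length trend removed the list turned, with 17 higher and 44 lower and a median of -0.23 in place of 0.18. The summed level was 46880 and 48880 CPM at 5 days, against 46400 and 42486 CPM at 1 day. Mitochondrial ribosomal proteins went likewise, with 25 higher and 12 lower of 69, and 12 and 20 with the trend removed.

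**Figure D4:**
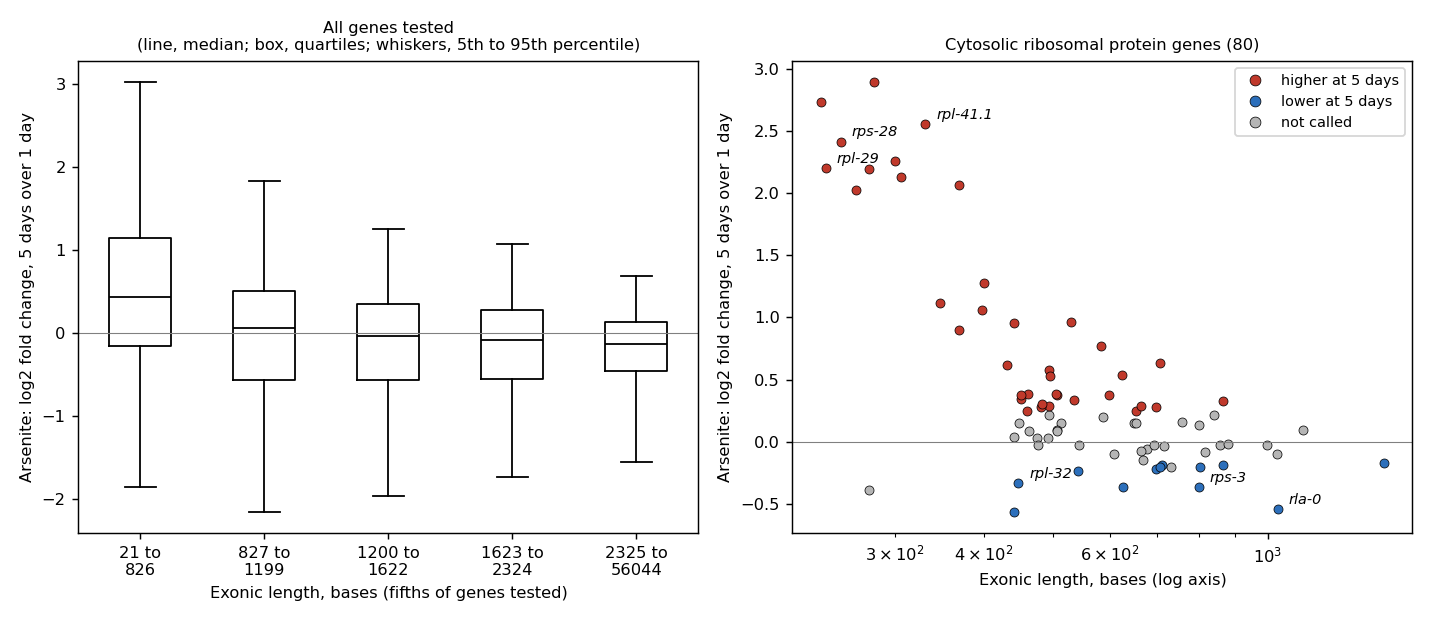
Left, log2 fold change of arsenite worms at 5 days over 1 day for 5 equal groups of the genes tested by exonic length (medians 0.43 for the shortest and -0.13 for the longest); right, the same for 80 cytosolic ribosomal protein genes against their exonic length in bases (log axis), coloured by call. Ribosomal protein genes with the largest rises are among the shortest, such as rpl-29 at 2.201, and rla-0 lies at -0.54.

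Translation factors, nucleolar genes and proteasome subunits moved little. Of 40 translation factors 14 were higher and 6 lower, none by more than 2-fold, with eif-1 at 0.63 (SE 0.07) and eif-3.C at -0.49 (SE 0.06). Of 21 genes of the nucleolus and RNA polymerase I, 3 were higher and 8 lower, such as nol-56 (-0.53, SE 0.06) and rpoa-2 (-0.46, SE 0.08), and with the length trend removed 5 were higher and 6 lower and the list median turned to 0.08. Proteasome subunits had 9 higher and 7 lower of 33, with pbs-1 at 0.56 (SE 0.07) and rpt-4 at -0.34. Autophagy genes were mostly higher. In 15 of 27 the level rose and in 2 it fell, with the cargo receptor gene sqst-1 at 123 and 123 CPM at 5 days, against 71.9 and 72.6 CPM at 1 day (log2 fold change 0.77, SE 0.06, edgeR adjusted p = 1.8e-10), and lgg-1, the worm's Atg8, at 0.73 (SE 0.07). The gene epg-2, a cargo adaptor known from embryos, fell by 1.14 on the log2 scale (SE 0.06). F-box and MATH-domain genes, many of them substrate adaptors for ubiquitination, had 59 higher and 87 lower of 281, and 22 of the rises and 51 of the falls passed 2-fold.

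Chaperone genes changed in both directions. Of 11 small heat shock genes 6 were higher and 4 lower, and with the length trend removed 4 were higher and 5 lower. The sip-1 gene, known from embryos, had 1896 and 1987 CPM at 5 days, against 754 and 745 CPM at 1 day, and held most of the list's summed level. The heat-inducible genes hsp-16.2 and hsp-70 were close to the detection limit at 1 day, with 9 and 10 counts over the 2 libraries. Their ratios of 5 days to 1 day were 8.09 (4.01 to 18.5) and 15.1 (lower limit 7.97) from counting error alone, and both stayed under 3 CPM at 5 days. The hsp-12 genes hsp-12.1, hsp-12.2 and hsp-12.3 fell, by 1.88 (SE 0.36), 0.73 (SE 0.18) and 1.35 (SE 0.33) on the log2 scale. Of 19 cytosolic chaperones 4 rose and 8 fell, with hsp-90 at -0.36 (SE 0.06), but with the length trend removed 7 rose and 4 fell. In the endoplasmic reticulum 5 of 20 rose and 11 fell, and with the trend removed 8 rose and 7 fell. Calreticulin, crt-1, had 0.54 (SE 0.06) and the Grp94 homologue enpl-1 had -0.62 (SE 0.06). The unfolded protein response reporter hsp-4 had 413 and 386 CPM at 5 days, against 484 and 445 CPM at 1 day (-0.22, SE 0.06), a call lost with the length trend removed and without replicate 1 of 1 day. Among mitochondrial chaperones and proteases 4 of 16 rose and 6 fell, and with the trend removed 5 rose and 3 fell. The mitochondrial Hsp70 gene hsp-6 rose by 0.33 (SE 0.06), ubl-5 by 2.47 (SE 0.20), and the chaperonin gene hsp-60 had -0.22 (SE 0.07), with its call lost in 4 alternatives.

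Single genes known for their part in arsenite or oxidant responses differed in their change with age. The SKN-1 reporter gst-4 stood at 8.87 and 7.25 CPM at 5 days, against 26.2 and 23.3 CPM at 1 day (log2 fold change -1.61, SE 0.13, edgeR adjusted p = 6.96e-10). The glutamate-cysteine ligase gene gcs-1, another SKN-1 target, had 151 and 140.04 CPM at 5 days, against 141 and 141 CPM at 1 day, and was not called (0.05, SE 0.06). The gene asna-1, an ATPase whose bacterial relative pumps arsenite, was not called either (0.06, SE 0.06). The gene aip-1, named for its induction by arsenite, had 0.21 (SE 0.09), and its adjusted p of 0.0474 became larger than 0.05 in 13 of 18 alternatives. Levels of skn-1 and daf-16 were 0.20 and 0.19 higher on the log2 scale (SE 0.06 each), and daf-16 lost its call without replicate 2 of 5 days and without replicate 2 of 1 day. The mitochondrial superoxide dismutase gene sod-3 had -0.58 (SE 0.21), a call lost with DESeq2 and without replicate 2 of either age.

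Glutathione S-transferases and UDP-glucuronosyltransferases had more falls than rises. Of 41 glutathione S-transferases 19 fell and 5 rose, and 14 of the falls passed 2-fold. The genes gst-42, gst-27 and gst-26 had log2 fold changes of -1.88 (SE 0.12), -1.51 (SE 0.10) and -2.09 (SE 0.14), and gst-24 had 1.83 (SE 0.19). Of 62 UDP-glucuronosyltransferases, which attach sugar acids to foreign compounds, 39 fell and 6 rose (median -0.78). The ugt-22 gene stood at 43.01 and 43.8 CPM at 5 days, against 180.0 and 171 CPM at 1 day. Cytochrome P450 genes went both ways, 18 higher and 21 lower of 64, and 22 and 17 with the length trend removed. Within this family the falls included cyp-35A5, cyp-35D1 and cyp-35A3, of a subfamily induced by foreign compounds, with -3.03 (SE 0.16), -3.24 (SE 0.17) and -3.79 (SE 0.20). The rises included cyp-34A2 (3.28, SE 0.21) and cyp-32B1 (2.89, SE 0.17). Antioxidant enzymes had 9 higher and 9 lower of 31, and 6 and 13 with the trend removed, with the thioredoxin gene trx-2 at 1.14 (SE 0.10), the extracellular superoxide dismutase gene sod-4 at 1.26 (SE 0.14) and the glutathione peroxidase gene gpx-5 at -1.85 (SE 0.10).

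Ferritin and metallothionein genes rose. The ferritin gene ftn-1, which stores iron, stood at 36.9 and 27.7 CPM at 5 days, against 0.897 and 0.563 CPM at 1 day (log2 fold change 5.47, SE 0.25, edgeR adjusted p = 7.88e-10). Its paralogue ftn-2 rose by 0.53 (SE 0.06). The metallothionein genes mtl-1 and mtl-2 rose too. The mtl-1 gene had 68.4 and 51.99 CPM at 5 days, against 4.33 and 7.99 CPM at 1 day (3.28, SE 0.38), and mtl-2 had 28.1 and 26.6 CPM at 5 days, against 5.97 and 4.28 CPM at 1 day (2.42, SE 0.13). The cadmium-responsive gene cdr-1 went the other way, with 0.777 and 0.9003 CPM at 5 days, against 6.83 and 7.69 CPM at 1 day, and the transporter gene mrp-1 fell by 0.81 on the log2 scale (SE 0.06). In all, 10 of 21 genes of metal and metalloid handling were higher and 5 lower.

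Genes of defence families changed in both directions. Of 13 lysozymes 6 rose and 4 fell, and lys-7 held most of their summed level at 5 days. The invertebrate-type lysozyme gene ilys-3 had 12.4 and 9.18 CPM at 5 days, against 0.351 and 0.263 CPM at 1 day, while ilys-5 fell by 0.80 on the log2 scale (SE 0.06). Among antimicrobial peptide families 25 of 49 rose and 8 fell, with spp-1 at 45.2 and 38.6 CPM at 5 days, against 7.26 and 6.42 CPM at 1 day, and spp-4 at -3.76 (SE 0.22). These genes are short, with a median exonic length of 418 bases, and with the length trend removed 19 were higher and 15 lower. C-type lectins, many of them secreted by the gut, went both ways, 40 higher and 36 lower of 109, with clec-62 at 1.46 (SE 0.08) and clec-223 at -1.45 (SE 0.09). Of 48 transthyretin-related genes 29 rose, 20 of them by more than 2-fold, and 11 fell. With the trend removed 23 were higher and 14 lower, and their median was 0.12 in place of 0.55. The ttr-45 gene stood at 212 and 194 CPM at 5 days, against 25.2 and 24.8 CPM at 1 day (log2 fold change 3.02, SE 0.07, edgeR adjusted p = 6.57e-20).

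Insulin signalling genes and genes downstream of DAF-16 were more often higher, 17 of 27 against 5 lower, and 9 of the rises passed 2-fold. The gene dod-23 had 293 and 274 CPM at 5 days, against 32.1 and 32.98 CPM at 1 day, and dod-19 rose by 1.72 (SE 0.07). The kinase genes age-1, the worm's phosphatidylinositol 3-kinase, and let-363, its TOR kinase, fell by 0.33 and 0.41 on the log2 scale (SE 0.06 each), and let-363 had -0.05 with the length trend removed. The list names no single direction of the pathway, since DAF-16 raises some of these genes and lowers others. Of 39 insulin-like peptide genes 25 could be tested, and 14 were higher and 2 lower, 12 of the rises passing 2-fold. Members near 0 counts at 1 day could be tested only through the libraries of 5 days, and so only as rises. The balance is therefore partly set by the filter on low counts. Most were at low levels. The ins-7 gene, which encodes an agonist of the insulin receptor, had 5.23 and 3.87 CPM at 5 days, against 0.312 and 0.188 CPM at 1 day (4.17, SE 0.35), and ins-8 had 50 counts at 5 days and none at 1 day, at least 9.33-fold higher against a floor of 3 counts per library. With the length trend removed 9 were higher and 4 lower.

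Neuronal genes did not share a direction. Neuropeptide genes were higher in 48 and lower in 2 of 94, such as nlp-59 with 8.18 and 6.84 CPM at 5 days, against 0.741 and 0.863 CPM at 1 day, and flp-24 at 1.69 (SE 0.16). They are short, with a median exonic length of 597.5 bases, and with the length trend removed 20 were higher and 7 lower. Synaptic and neurotransmitter genes were higher in 4 and lower in 11 of 37, and in 9 and 6 with the trend removed. The synaptobrevin gene snb-1 stood at 251 and 261 CPM at 5 days, against 129 and 118.98 CPM at 1 day (1.04, SE 0.06), and the active zone gene syd-2 fell by 0.91 on the log2 scale (SE 0.08). The general neuronal markers unc-119, rab-3, unc-64, unc-13 and snt-1 were not called, with log2 fold changes between -0.17 and 0.32. Genes of the touch receptor neurons were lower in 8 of 13 and higher in 1. The tubulin genes mec-7 and mec-12, which build the special microtubules of these cells, fell by 1.31 and 0.76 on the log2 scale (SE 0.12 each), and mec-3, their transcription factor, rose by 1.17 (SE 0.28). Of 1310 chemoreceptor-class genes 54 had enough counts to test, with 15 higher and 10 lower. The nuclear hormone receptors, a large family of transcription factors, had 35 higher and 46 lower of 186, and 44 and 41 with the trend removed, with nhr-76 at 1.31 (SE 0.12) and nhr-31 at -1.41 (SE 0.09).

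In the germ line, sperm genes were mostly lower and oocyte genes more often higher. Of 82 sperm genes 49 could be tested, and 32 were lower, 30 of them by more than 2-fold, while 5 were higher. Members near 0 counts at 5 days could be tested only through the libraries of 1 day, and so only as falls. The sperm-specific gene sss-1 had no counts at 5 days and 2.85 and 2.66 CPM at 1 day, at least 21.4-fold lower at 5 days against a floor of 3 counts per library. The phosphatase gene gsp-3, needed for sperm meiosis, was 0.0431 times as high at 5 days by counts (interval 0.0115 to 0.114), and the major sperm protein gene msp-59 had 2 counts at 5 days and 92 at 1 day. These messages were low at both ages. The list's median log2 fold change was -3.01, or -2.69 with the 6 members that have no counts in an age group set to their bound. Genes of the list that rose, such as spe-5 with 18.4 and 18.8 CPM at 5 days, against 10.96 and 11.7 CPM at 1 day, went against it. Over the sperm genes with a mean of at least 5 CPM the median turned to 0.19. Of 4 sperm markers, spe-11 and fer-1 were not called (edgeR adjusted p = 0.973 and 0.0843), and msp-3 had too few counts to test. The marker msp-142 was lower (log2 fold change -3.09, edgeR adjusted p = 0.00942), with 2 counts at 5 days and 21 at 1 day. The list of sperm genes summed to 205 and 212 CPM at 5 days, against 241 and 239 CPM at 1 day.

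Of 33 oocyte and eggshell genes 15 rose and 3 fell. The perm-2 gene, of the eggshell's permeability barrier, stood at 989 and 1061 CPM at 5 days, against 407 and 395 CPM at 1 day (log2 fold change 1.35, SE 0.06, edgeR adjusted p = 8.11e-15), and perm-1 fell by 0.51 on the log2 scale (SE 0.06). The maternal gene mex-1 rose by 0.57 (SE 0.06). Markers of the germ line and of oocytes moved little. Together 5 germline markers had 2227 and 2202 CPM at 5 days, against 2359 and 2253 CPM at 1 day, and 4 oocyte markers had 2753 and 2664 CPM at 5 days, against 2785 and 2649 CPM at 1 day. Meiosis genes had 14 higher and 3 lower of 29, cell division and replication genes 24 higher and 11 lower of 59, and genes of germ granules and germline Argonautes 13 higher and 7 lower of 31. Among these no rise passed 2-fold. The falls included alg-3 and alg-4, Argonautes of spermatogenesis, at -2.55 (SE 0.39) and -2.98 (SE 0.46), and rises included prg-1, the Piwi protein, at 0.51 (SE 0.06) and dsb-1, needed for meiotic breaks, at 0.78 (SE 0.06).

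Cell fate factors of the embryo were lower in 25 and higher in 4 of 36 (median -0.93). The pharynx and gut factor gene pha-4 stood at 7.97 and 8.96 CPM at 5 days, against 35.5 and 34.5 CPM at 1 day (log2 fold change -2.05, SE 0.11, edgeR adjusted p = 2.64e-13). The muscle regulators unc-120 and hnd-1 fell by 2.27 (SE 0.13) and 2.97 (SE 0.21) on the log2 scale. The 4 that rose included tbx-37 and tbx-38, a redundant pair of T-box genes, at 1.35 (SE 0.23) and 1.84 (SE 0.18). Some of these factors are also expressed in adult tissue. Embryo markers summed to 15.5 and 16.97 CPM at 5 days, against 42.5 and 42.9 CPM at 1 day, most of it, and of its fall, from pha-4. The other markers did not share a direction. The gene elt-7 fell by 0.58 on the log2 scale and tbx-37 rose by 1.35. The end-1 gene had 4 counts at 5 days and 63 at 1 day, a ratio of 0.0711 (interval 0.0188 to 0.191) from counting error alone. The end-3 gene rose by 1.38 but was near the detection limit, with 0.940 and 0.765 CPM at 5 days, against 0.195 and 0.450 CPM at 1 day. How many embryos the worms carried is not given in the labels. Of 80 histone genes 32 could be tested, and 15 were higher and 3 lower, such as hil-1, a linker histone, with 23.3 and 18.1 CPM at 5 days, against 2.77 and 2.93 CPM at 1 day. Many histone messages lack a poly(A) tail, and with the length trend removed 7 were higher and 14 lower.

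Tissue markers gave the background to these lists. Body wall muscle, intestine and skin markers all summed lower at 5 days. The muscle markers had 1120 and 1089 CPM at 5 days, against 4001 and 3852 CPM at 1 day. The intestine markers had 261 and 298 CPM at 5 days, against 990.3 and 909 CPM at 1 day. Skin was led by the adult collagen gene col-19, which fell by 4.69 on the log2 scale (edgeR adjusted p = 1.62e-17), and the skin markers nhr-23, nhr-25, elt-1 and dpy-7 fell by between 0.64 and 1.38, while the seam cell gene grd-10 rose by 1.095. Neuronal markers summed to 327 and 346 CPM at 5 days, against 210 and 199 CPM at 1 day, snb-1 holding most of this. The part of tissue composition in any list's change was not tested.

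The same ages were compared in water to ask whether the change with age was another in arsenite. In water 8685 genes differed between the ages (60.1%), 4348 higher at 5 days (30.1%) and 4337 lower (30.0%). Of the 8616 genes called in arsenite 87.8% were also called in water, and of those called in water 87.1% were called in arsenite. Of the 7567 called in both, 7565 had the same direction. The comparisons share no library, but share the estimate of spread and the order of library numbers. Over the genes called in arsenite, the median size of the log2 fold change was 0.76 in arsenite and 0.70 in water, in a set chosen on the arsenite values.

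The difference between the age effects in arsenite and in water passed the test in no gene (0 of 14449, 0.0%, edgeR; smallest adjusted p 0.595). An unadjusted p under 0.05 was found for 368 genes, and DESeq2 and limma voom also called 0. The smallest p belonged to ncl-1 (chromosome III, 7719729 to 7738105), a repressor of nucleolar size. It stood at 149.7 and 149.6 CPM at 5 days, against 165 and 153 CPM at 1 day, in arsenite, and at 106 and 115 CPM at 5 days, against 157.5 and 156 CPM at 1 day, in water. The age effect was -0.09 in arsenite and -0.50 in water, a difference of 0.42 (95% interval 0.24 to 0.60). The others of smallest p with a more positive effect in arsenite were the pseudogene WBGene00014294, Y47H10A.3, F53H2.4 and C16C8.5. Those with a more negative effect were tsp-8, T12E12.6, nspg-1, col-149 and arrd-6. Of these, tsp-8, a tetraspanin gene, fell by 1.23 in arsenite, against 0.45 in water, on the log2 scale, a difference of -0.79 (interval -1.19 to -0.39), and col-149 by 1.75, against 0.85, a difference of -0.91 (interval -1.46 to -0.36). None of these differences passed after adjustment in the fit over all 8 libraries with the filter on low counts. Without that filter WBGene00014294 was called (difference 0.695, edgeR adjusted p = 0.0123), without replicate 1 of water at 5 days 1 gene was called, and without replicate 2 of water at 1 day 2 genes were. In the other alternatives run none was called. The missing calls do not show that the change with age is alike in both treatments.

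**Figure D5:**
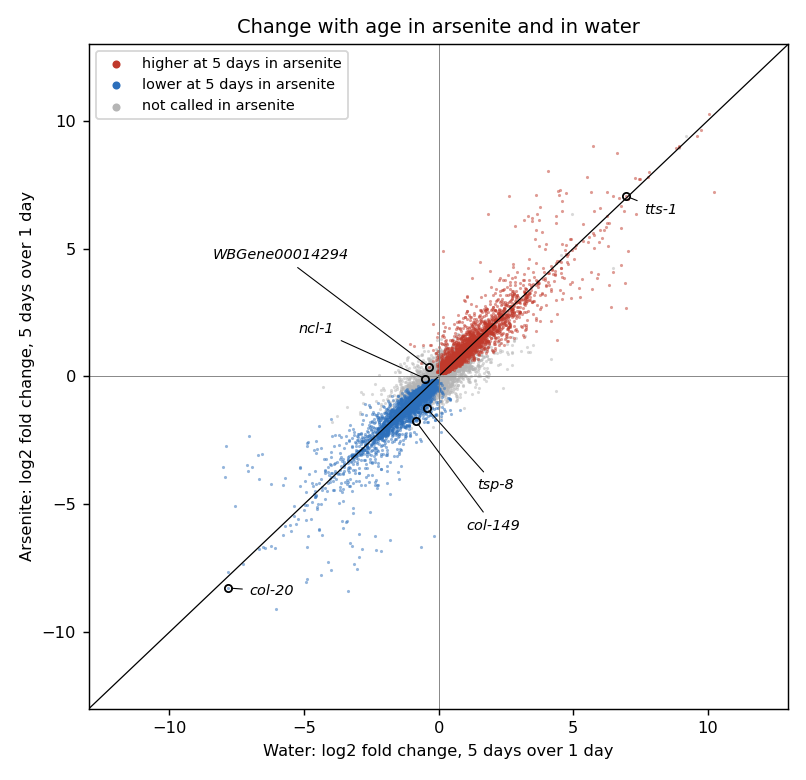
Log2 fold change of 5 days over 1 day in arsenite (vertical) against that in water (horizontal) for the 14449 genes tested, coloured by the call in arsenite, with the line of equal effects. Points scatter about the line; ncl-1 lies at -0.09 in arsenite and -0.50 in water, and none of the named genes off the line passed the test of the difference.

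The counts of gene lists in arsenite and in water stand side by side. Body wall muscle genes had 37 lower in arsenite and 38 in water, V-ATPase subunits 19 and 19, intestine genes 21 and 18, sperm genes 32 and 32, UDP-glucuronosyltransferases 39 and 38, and autophagy genes 15 higher in both. Other lists differed more, such as hedgehog-related and patched-related genes with 16 higher and 20 lower in arsenite, against 23 and 17 in water. Synaptic genes had 4 higher and 11 lower in arsenite, against 7 and 8 in water, and cytosolic ribosomal proteins had 37 higher in arsenite, against 44 in water. Subunits encoded by mitochondrial DNA were the list whose medians differed in sign, 0.24 in arsenite and -0.12 in water, apart from cytochrome P450 genes at 0.12 and -0.05. In water 1 mitochondrial subunit was called higher and 3 lower. The list summed to 10255 and 9170 CPM at 5 days, against 10642 and 10689 CPM at 1 day, in arsenite. In water it summed to 9329 and 8425 CPM at 5 days, against 12391 and 10225 CPM at 1 day. Libraries of 1 group thus differed from each other in this list, most in water at 1 day. ND5 stood at 289 and 266 CPM at 5 days, against 291 and 281 CPM at 1 day, in arsenite, with an age effect of -0.04 (SE 0.19), and had an age effect of -0.93 in water. These differences between lists were not tested.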

How the data were processed

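Whole-worm RNA of N2 hermaphrodites was sequenced in 8 libraries, and the 2 arsenite libraries of 5 days were compared with the 2 of 1 day. The authors deposited raw read counts per gene for 46748 identifiers, made, per the submitters' processing notes, with CASAVA 1.7, STAR 2.4.1d and featureCounts 1.4.6-p4 on build WBcel235. Neither strandedness nor how multi-mapping reads were assigned is stated in the labels or headers. A table of RPKM values by the same authors was not used. Symbols were found for 43693 identifiers in the files, and 9 more were taken from a RefSeq table.

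Genes were kept if their CPM matched at least 10 counts at the median library size in at least 2 of the 8 libraries. At least 15 counts in all were also required. Counts were scaled by TMM and fitted with edgeR 4.0.16 in R 4.3.3 over all genes kept and all 8 libraries. The fit used 4 group means, robust quasi-likelihood tests and Benjamini-Hochberg adjustment over the 14449 genes tested at 0.05. Standard errors are the fold change over the root of the F statistic. For some genes with 10 or fewer counts in an age group, an exact 95% interval of the ratio is given, which covers counting error only. For others only the counts or the edgeR fold change are given. Gene lists were described by counts of called members and medians. The fit was tested on simulated data before use.

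Named genes were the 10 largest rises and falls with at least 5 CPM and no overlap, the 8 largest gains and losses in CPM, up to 3 genes per list and direction by smallest p or any member of lists of up to 14, up to 5 per direction for the difference between arsenite and water, and a fixed set of stress genes and tissue markers. The members and lists were chosen with earlier results of these data known. Alternatives were other scalings, DESeq2 1.42.0, limma 3.58.1 voom, other filters, the arsenite libraries alone, a term for neighbouring library numbers, each library left out in turn and, chosen after seeing the data, a fit with the length trend removed.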

Additional observations from a re-analysis of the deposited data

Results flagged for a closer look

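Among the named genes, 3 were flagged because every arsenite library moved with age in the direction opposite to every water library. How many of all genes tested did so is not given here. WBGene00014294 and F53H2.4 had been named for small p-values of the difference, so this pattern adds no support to it. In each the test of the difference did not pass over all 8 libraries with the filter on low counts (edgeR, smallest adjusted p of all genes 0.595). ND4, a subunit of mitochondrial complex I, stood at 348 and 327 CPM at 5 days, against 299.6 and 315 CPM at 1 day, in arsenite. In water ND4 stood at 280.3 and 229.9 CPM at 5 days, against 407 and 289 CPM at 1 day. Its age effect was 0.14 in arsenite and -0.45 in water, a difference of 0.58 with an interval of -0.15 to 1.32.

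The pseudogene WBGene00014294 stood at 32.5 and 29.5 CPM at 5 days, against 23.8 and 24.4 CPM at 1 day, in arsenite, and at 19.5 and 20.8 CPM at 5 days, against 28.8 and 22.6 CPM at 1 day, in water, with a difference of 0.71 (interval 0.40 to 1.02). Without the filter on low counts this difference was called (edgeR adjusted p = 0.0123), and so it was without replicate 2 of water at 1 day (0.0486); in the other alternatives its adjusted p lay above 0.05. The noncoding RNA F53H2.4 stood at 3.27 and 3.47 CPM at 5 days, against 1.99 and 2.74 CPM at 1 day, in arsenite, and at 2.21 and 1.97 CPM at 5 days, against 3.34 and 3.18 CPM at 1 day, in water. The difference was 1.14 (interval 0.51 to 1.78). With the length trend removed its age effect in arsenite was -0.41, in place of 0.51.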

How the results depend on the processing

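The count of genes called in arsenite was 8616 and lay between 6337 and 9199 over the alternatives that kept all libraries, and between 7168 and 8948 with a library left out. With library totals as the only scaling, 5134 were higher and 3622 lower, against 4371 and 4245 with TMM. Of 341 named genes that were called, 46 lost the call in at least 1 of 18 alternatives. Many of the named genes were picked for a small p or a large change, so their share does not stand for all calls. Of the 8616 genes called, 7309 were also called with DESeq2 and 7279 with the length trend removed. Genes called and over 2-fold numbered 1568 among genes with a mean of at least 5 CPM, against 3328 over all genes tested. That filter, which also gave the 6337 above, tested fewer genes, so its counts do not show that calls were lost. The difference between arsenite and water called 1 gene with no filter on low counts (WBGene00014294) and 0 to 2 genes with a library left out.

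With the length trend removed hsp-17 turned to -0.48, unc-60 to -0.043, sdhd-1 to -0.17, atg-2 to 0.18 and F53H2.4 to -0.41. List medians turned to -0.090 for Fatty acid and lipid binding proteins, -0.23 for Cytosolic ribosomal proteins, -0.039 for Mitochondrial ribosomal proteins, 0.084 for Nucleolus and RNA polymerase I genes, 0.084 for Cytosolic chaperones, -0.071 for Antioxidant enzymes, -0.24 for Histones and 0.040 for Nuclear hormone receptors. With at least 5 CPM they turned to -0.14 for Hedgehog-related and patched-related genes, 0.16 for F-box and MATH-domain genes, -0.00073 for Cytochrome P450s, -0.95 for Chemoreceptor-class genes, 0.19 for Sperm genes and 0.0026 for Nuclear hormone receptors. With library totals only they turned to 0.043 for Nuclear-encoded respiratory chain subunits, 0.059 for Cytosolic chaperones and 0.045 for Nuclear hormone receptors. With a library left out, medians lay between -0.0080 and 0.11 for Proteasome subunits, between -0.056 and 0.033 for Cytosolic chaperones and between -0.063 and 0.010 for Nuclear hormone receptors. The cause of these turns was not tested.

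No paired analysis was possible because no label ties a library of 5 days to a library of 1 day, the replicate numbers being given in accession order. With 2 libraries an age, small changes can be missed, and genes without enough counts were not tested.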

Other observations

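Genes of chromosome X were more often lower at 5 days. Of 2096 tested, 440 were higher (20.99%) and 812 lower (38.7%), with a median log2 fold change of -0.21 in arsenite and -0.16 in water. On the autosomes 30.3% to 34.2% were higher and 24.5% to 29.4% lower. Of 57 tested genes annotated as ncRNA, 28 were higher (49.1%) and 6 lower (10.5%), against 30.3% and 29.4% of all genes tested. Of 441 pseudogenes 86 were higher (19.5%) and 81 lower (18.4%). The part of gene length or low counts in these shares was not tested.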
